A study of Mustela putorius furo with 8 samples.

Results

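Tight junctions and adherens junctions hold the cells of an epithelium together, and 10 of their genes were followed over 4 days of culture in ferret pancreatic ductal epithelium (PDE). The genes were CLDN1, CLDN3, CLDN4, CLDN7, CLDN10, OCLN, TJP1, CDH1, CDH3 and EPCAM. They were chosen by symbol from the 27912 genes of the count matrices, which held all 10. Ductal cells from the pancreata of newborn ferrets, 1 to 3 days old, had been expanded on culture dishes for 10 passages, then seeded on a porous membrane and polarized with their upper side at air, an air-liquid interface (ALI) culture. The WT group had the genotype WT, and the CF group had the genotype CFTR KO/KO, from ferrets in which the chloride and bicarbonate channel of cystic fibrosis had been knocked out by gene targeting and nuclear transfer. Single-cell RNA was counted with the droplet method of 10x Genomics at day 2, 5, 7 and 9 at the ALI, in 1 library for each genotype and day. Each library was a pool of several animals, and the pooled WT and CF animals differed in the level of PDX1, a transcription factor of pancreas development. No cell could be assigned to an animal.

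Claudins are membrane proteins that form the strands of the tight junction and set which ions pass between cells. CLDN3 and CLDN4 are usually described as sealing claudins and CLDN10 as a claudin of ion-permeable junctions, while CLDN1 is widespread in stratified epithelia. OCLN (occludin) is a further membrane protein of the strands, and TJP1 (ZO-1) is the scaffold that ties them to actin. CDH1 (E-cadherin) and CDH3 (P-cadherin) are the calcium-dependent adhesion molecules of adherens junctions, and P-cadherin is typical of basal layers. EPCAM is an adhesion protein of simple epithelia that binds and stabilizes CLDN7.

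The 8 libraries held between 1607 (CF, day 7) and 6224 (WT, day 2) retained cells and between 34735952 and 114585136 unique molecular identifiers (UMIs, each marking 1 captured transcript). Levels are counts per 1000000 UMIs of a library (CPM). Intervals are 95% and cover counting error only. With 1 library per group no difference at a given day could be tested, and no p-value is given. Days were not taken as replicates of a genotype. At most 14 cell barcodes were shared by any pair of libraries. In the CF library of day 7, 25.6% of cells had under 3000 UMIs, against at most 9.00% in the others. CFTR, the gene knocked out, was at 6.57, 16.9, 15.9 and 29.5 CPM in WT at day 2, 5, 7 and 9 and at 2.50, 8.69, 11.1 and 11.4 CPM in CF, so that transcripts were still counted in the libraries labelled CF. Gene counts do not show which part of CFTR was read, and they are no check of the labels. All 10 duct markers of a list were above 3 UMIs in every library (summed 7975 to 10673 CPM in WT and 9278 to 11443 CPM in CF). Acinar (3 of 8 listed genes in the matrices), endocrine and endothelial markers summed to at most 0.259 CPM in any library. Of the blood markers, which reached 13.2 CPM in WT and 21.8 CPM in CF, CD68, a lysosomal protein of macrophages, was at 20.9 CPM in CF at day 2, and PTPRC, which defines blood cells, had at most 2 UMIs in any library.

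All 10 genes are annotated as protein coding on the assembly of the files, ASM1176430v1.1, in a RefSeq table that names no chromosome for them. CLDN4 (positions 5771226 to 5772934) and CLDN3 (5806335 to 5807721) are next to each other in that table. Between CDH3 (27416711 to 27474188) and CDH1 (27494680 to 27578796) it lists a single pseudogene, which ends at 27494814 and so shares positions with CDH1. CLDN10 (562303 to 690011) shares positions with DZIP1. CLDN10, OCLN and TJP1 each share positions with a gene of 0 UMIs.

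Across the course of polarization, the claudins CLDN4 and CLDN7 fell in CF and stayed within 1.5-fold in WT. CDH1 and OCLN rose in WT from a low start to the level that CF had from day 2. CDH3 fell in WT (log2 change of -0.68) and not in CF, while within ductal cells it fell in CF and not in WT (0.15). Here "rose" and "fell" are used of differences of at least 1.5-fold in CPM + 1. TJP1 rose in both genotypes. From day 2 to day 9 in WT, 4 of the 9 junction genes at 10 CPM or more on either day rose (CLDN3, OCLN, TJP1, CDH1) and 1 fell (CDH3). Of all 8183 genes at that level, 21.2% rose and 14.2% fell. CLDN3 was at that level only at day 9 (10.4 CPM), so it could not have been counted as fallen. In CF, 2 of 8 rose (TJP1, EPCAM) and 2 fell (CLDN4, CLDN7), against 17.8% and 8.06% of 8013 genes. With equal weight for each class, CDH1 changed by 0.41, OCLN by 0.03 and CDH3 by -0.25 on the log2 scale in WT, and CLDN4 by -0.51 and CLDN7 by -0.49 in CF, all under 1.5-fold, while CLDN1 in CF changed by -0.71, past it. Equal weight took classes of at least 20 cells, and WT at day 2 had only 29 centroacinar cells. Within ductal cells CLDN3 changed by 0.50 and OCLN by 0.56 in WT, and CLDN4 by -0.47 and CLDN7 by -0.49 in CF, under 1.5-fold. The comparisons of days share libraries with the comparisons of genotypes below.

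**Figure D1:**
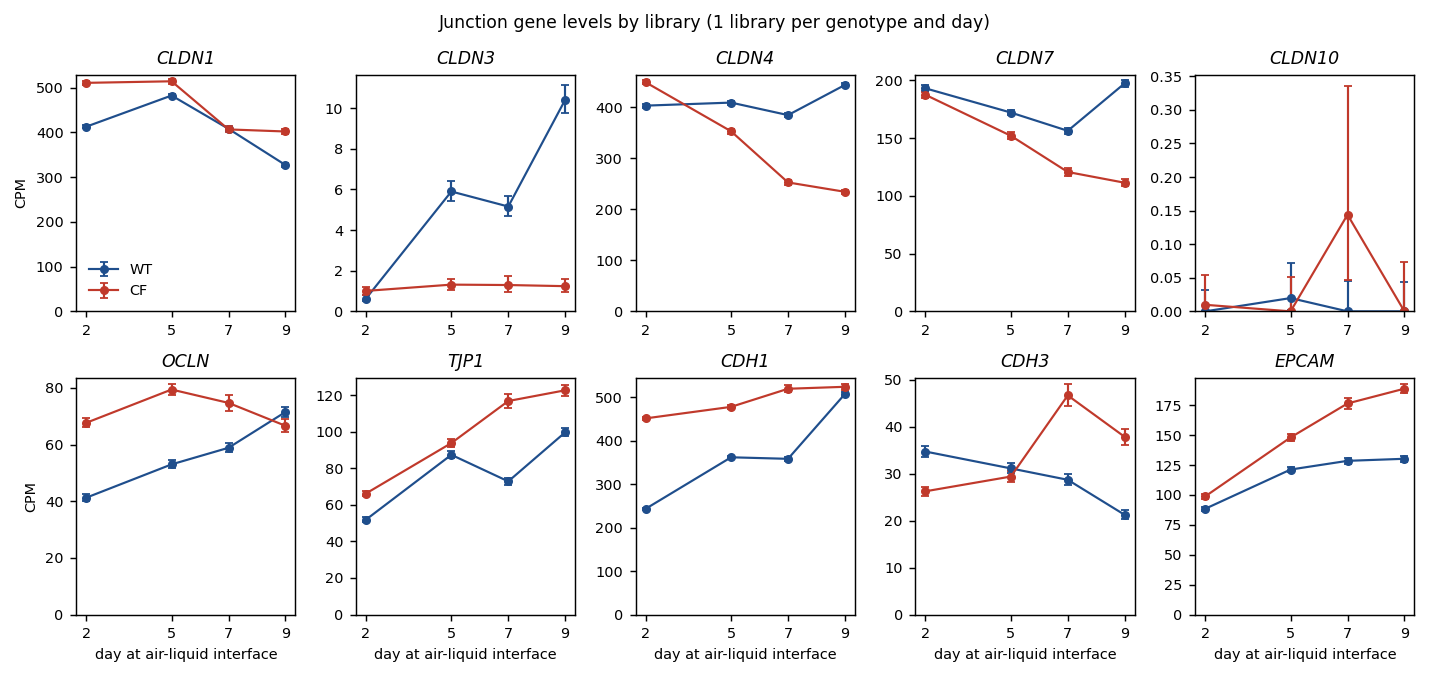
Level of each junction gene (CPM, y axis from 0) against day at the ALI, with WT in blue and CF in red. Each point is 1 library of pooled animals and bars are 95% exact Poisson intervals (counting error only). CLDN4 and CLDN7 fall in CF, from 448 to 234 CPM and from 187 to 111 CPM, and CDH1 in WT climbs from 244 to 508 CPM.

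CLDN4, a sealing claudin, was at 403, 409, 384 and 443 CPM in WT at day 2, 5, 7 and 9 and at 448, 353, 252 and 234 CPM in CF. The WT libraries lay close together, and the CF libraries were lower on each later day, above WT at day 2 and below it from day 5 on. The CF to WT ratio was 1.11 (1.1 to 1.13) at day 2, 0.862 (0.849 to 0.876) at day 5, 0.657 (0.641 to 0.673) at day 7 and 0.528 (0.517 to 0.539) at day 9, but within the cells named ductal the log2 differences at day 5 and 7 were 0.32 and 0.17, with CF above WT. At day 2 CF was below the WT cells of clusters under 10 CPM of SOX2 (SOX2-low), which were at 754 CPM (log2 difference of -0.75). If each class of cells was given equal weight, the difference at day 7 was -0.28 for CLDN4, and at day 9 it was -0.44 for CLDN4 and -0.53 for CLDN7, all under 1.5-fold, and within ductal cells the day 9 values were -0.18 and -0.23. Without ductal clusters led by genes of another class or shallow, CLDN4 at day 9 was level, at 359 CPM in CF and 358 CPM in WT. In the same cells CLDN7 was above WT, at 173 against 141 CPM. CLDN7, the claudin that EPCAM binds, was at 193, 172, 156 and 197 CPM in WT and at 187, 152, 121 and 111 CPM in CF. It began level in the genotypes, with a ratio of 0.971 (0.952 to 0.990) at day 2, and reached 0.564 (0.547 to 0.581) at day 9. Within ductal cells CF was above WT at day 5 and 7 (log2 differences of 0.44 and 0.26, against -0.18 and -0.37 for the whole libraries). WT had its lowest value at day 7 and returned to its day 2 level at day 9, which CF did not.

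CLDN1, a claudin found in many epithelia, was at 413, 482, 408 and 327 CPM in WT and 511, 514, 406 and 402 CPM in CF. The CF to WT ratio was 1.24 (1.22 to 1.25) at day 2, 1.07 (1.05 to 1.08) at day 5, 0.997 (0.977 to 1.02) at day 7 and 1.23 (1.21 to 1.25) at day 9, but the day 9 log2 difference was -0.05 with equal class weight and -0.92 within ductal cells. Without ductal clusters that were led by genes of another class or shallow, it was 0.007 within ductal cells, a ratio of 1.00 (0.919 to 1.1). Against SOX2-low WT cells it was -0.29 and -0.03 at day 5 and 9. WT had its highest value at day 5, while in CF day 2 and day 5 were level (ratio 1.01, 0.993 to 1.02). No ratio between the whole libraries of the genotypes reached 1.5-fold. Of all UMIs of CLDN1, CLDN4 and CLDN7, those of CLDN1 were 40.9, 45.4, 43.0 and 33.8% in the WT libraries of the 4 days, while the CF libraries had 44.5, 50.5, 52.1 and 53.8%. This share went up at each step in CF, and it had its lowest value in WT at day 9.

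CLDN3 was a gene of few UMIs, at 0.628, 5.90, 5.16 and 10.4 CPM in WT and 1.01, 1.32, 1.30 and 1.24 CPM in CF. Only in the WT library of day 9 did it pass 10 CPM. The CF to WT ratio was 1.60 (1.17 to 2.20) at day 2, 0.223 (0.177 to 0.277) at day 5, 0.251 (0.18 to 0.342) at day 7 and 0.119 (0.0905 to 0.154) at day 9 over all cells. Both libraries of day 2 were near 1 CPM, and equal class weight turned their log2 difference to -0.38, with 29 WT centroacinar cells weighed as a class. Within the ductal cells the log2 differences of the last 3 days were 0.82, 0.12 and 0.39, the ratios at day 7 and 9 having intervals of 0.365 to 3.17 and 0.730 to 3.17. Without the ductal clusters led by another class or shallow they were 0.88, 0.03 and -0.16, with an interval of the day 9 ratio from 0.0195 to 4.72 that gives no direction, and set against the SOX2-low cells of WT they were 0.74, 0.35 and -0.21. CLDN10 had at most 5 UMIs in any library (0, 2, 0 and 0 in WT, 1, 0, 5 and 0 in CF) and was not detectable above the level of 3 UMIs except for the 5 UMIs of CF day 7, so no ratio is given. Those 5 UMIs were all in 1 of the 1607 cells.

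OCLN, the second kind of strand protein, was at 41.2, 53.0, 58.8 and 71.5 CPM in WT, higher on each later day, and at 67.7, 79.4, 74.7 and 66.6 CPM in CF, where the 4 libraries stayed between 66.6 and 79.4 CPM. CF was above WT at day 2 by a ratio of 1.64 (1.58 to 1.70), though by log2 differences of 0.25 against SOX2-low WT cells and 0.51 without clusters that went against their class name, under 1.5-fold, and at day 5 by 1.5 (1.44 to 1.56), just under the limit in CPM + 1. At day 9 the ratio was 0.932 (0.893 to 0.972), but the log2 difference was 0.56 with equal class weight. TJP1, the scaffold below the strands, was at 51.9, 87.3, 72.8 and 99.6 CPM in WT and 66.2, 93.8, 117 and 123 CPM in CF. It rose from day 2 to day 9 by a ratio of 1.92 (1.86 to 1.99) in WT and 1.85 (1.79 to 1.92) in CF. CF was above WT at all 4 days, though not at day 5 with equal class weight (log2 difference of -0.09), and the ratio passed 1.5-fold at day 7 alone, at 1.60 (1.54 to 1.67). The WT library of day 7 was below those of day 5 and 9.

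CDH1, the E-cadherin gene, was at 244, 362, 358 and 508 CPM in WT and at 452, 478, 519.8 and 524 CPM in CF. It rose in WT by a ratio of 2.09 (2.05 to 2.12) from day 2 to day 9. In CF the ratio over the same time was 1.16 (1.14 to 1.18). Over whole libraries the CF to WT ratio was largest at day 2, at 1.85 (1.83 to 1.88), with 1.32 (1.30 to 1.34) at day 5 and 1.45 (1.42 to 1.48) at day 7, and at day 9 it was 1.03 (1.02 to 1.05). The order of the days differed among other cells, with log2 differences at day 2, 5 and 7 of 0.52, 0.79 and 0.73 against SOX2-low WT cells and 1.09, 0.86 and 1.52 within ductal cells. CDH3, the P-cadherin gene, was at 34.7, 31.1, 28.7 and 21.2 CPM in WT, lower on each later day, and at 26.2, 29.4, 46.6 and 37.8 CPM in CF, with its highest library at day 7.

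The ratio of CF to WT for CDH3 was 0.756 (0.720 to 0.794) at day 2, 0.944 (0.893 to 0.998) at day 5, 1.63 (1.53 to 1.73) at day 7 and 1.78 (1.67 to 1.90) at day 9, but within the ductal cells CF was below WT at day 7 and 9 (log2 differences of -1.64 and -2.30), and against SOX2-low WT cells the log2 differences at day 7 and 9 were 0.32 and -0.02, both under 1.5-fold. With equal class weight they were 0.37 and 0.11, also under it. Of the UMIs of both cadherins, those of CDH3 were 12.5, 7.91, 7.41 and 4.01% in the WT libraries and 5.49, 5.79, 8.23 and 6.73% in the CF libraries. The cadherin make-up of the WT libraries thus moved towards CDH1 on each later day, while CF was lowest at day 2. Markers of mesenchymal cells, a list of 10 genes with VIM, FN1 and SPARC among them, moved as well, and summed to 16.6, 711, 365 and 645 CPM in WT and 35.6, 166, 1981 and 2242 CPM in CF. Between 6 and 7 of the 10 were above 3 UMIs in a WT library, where COL3A1, a collagen that defines fibroblasts, had 0 UMIs on all 4 days, and between 7 and 10 in a CF library, where COL3A1 was at 1.13, 0.0140, 2.16 and 0.840 CPM. Basal markers (TP63, KRT5 and KRT15) summed to 1294, 712, 832 and 411 CPM in WT and 977, 642, 752 and 433 CPM in CF. The part of either list in the CDH3 values was not tested.

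EPCAM was at 88.5, 121, 129 and 130.3 CPM in WT and at 98.8, 148, 177 and 189 CPM in CF, above WT at each of the 4 days by ratios of 1.12 (1.09 to 1.15), 1.22 (1.19 to 1.25), 1.37 (1.33 to 1.42) and 1.45 (1.41 to 1.49). The gap was wider on each later day and did not reach 1.5-fold, and at day 2 CF was below the SOX2-low cells of WT (log2 difference of -0.23). EPCAM and its partner CLDN7 thus went different ways in CF, where EPCAM rose by a ratio of 1.91 (1.86 to 1.97) from day 2 to day 9 and CLDN7 fell to 0.594 (0.576 to 0.612).

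Between genotypes at a given day, few of the 10 genes passed 1.5-fold. At day 2, 2 of the 8 genes at 10 CPM or more in either library were higher in CF (OCLN, CDH1) and none was lower, where 10.5% of all 7899 such genes were higher and 9.74% lower. With equal class weight neither passed, at log2 differences of 0.17 and 0.36. That weighting took classes of at least 20 cells, so the 29 WT centroacinar cells of day 2 counted as a full class. At day 5 none of 8 passed in either direction (background 5.78% higher and 8.64% lower of 8093). At day 7, TJP1 and CDH3 were higher and CLDN4 lower, of 8 (background 14.4% and 5.85% of 8151). At day 7, TMM scaling shifted the median of all genes by -0.12 on the log2 scale, and it left TJP1 at 0.55 and CDH3 at 0.56, both under 1.5-fold. Equal class weight left CLDN4 at -0.28, also under it. At day 9, CDH3 was higher and CLDN3, CLDN4 and CLDN7 were lower, of 9 (background 9.69% and 7.91% of 8092). CLDN3 entered this count only through the WT library, at 10.4 CPM against 1.24 CPM in CF, so it could not have been called higher.

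**Figure D2:**
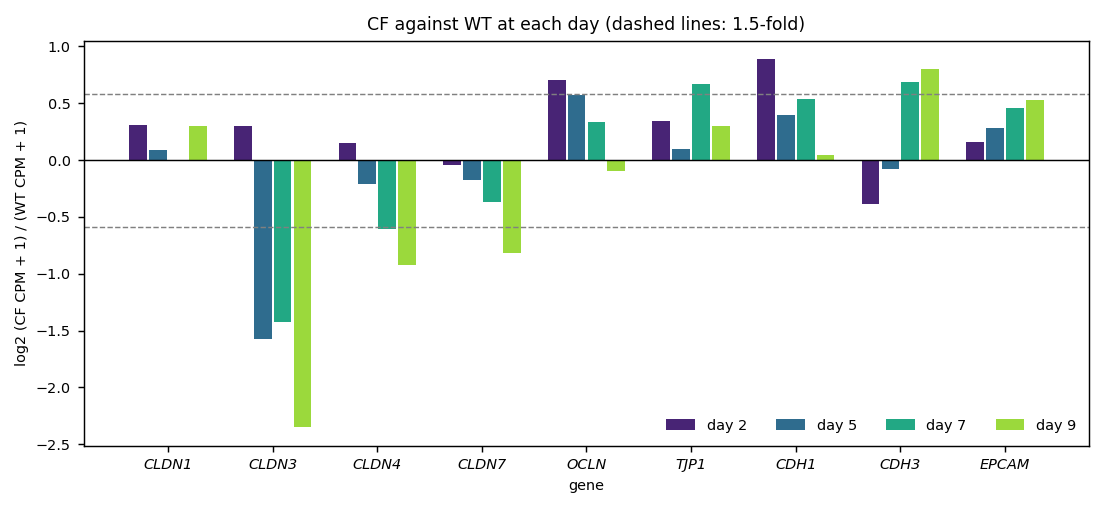
Difference between CF and WT for each gene (log2 of CF CPM + 1 over WT CPM + 1, y axis), with 1 bar per day from 1 library of each genotype and dashed lines at 1.5-fold. CLDN10 is left out for its low counts. The bars of CLDN4 and CLDN7 run down from day 2 to day 9, to -0.92 and -0.82, and those of CDH1 from 0.89 towards 0.05.

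The sum over a library does not tell a change in the level of a cell from a change in which cells are present, so the levels were also taken within the classes that the authors gave to their clusters. WT and CF cells had been clustered and named separately, and the make-up differed. Ductal cells were 71.5, 60.5, 50.7 and 39.7% of WT at day 2, 5, 7 and 9 and 57.6, 19.3, 11 and 11.4% of CF, and centroacinar cells were 0.466, 14.2, 16.9 and 43.6% of WT and 25.1, 59.7, 68.2 and 78.6% of CF. Of 71 clusters, 13 had leading genes of another class or shallow cells with no marker of their own class, and they were left out of the class values below. That left 18.0% of the CF ductal cells at day 9 (51 of 284 cells), 88 of 176 at day 7 and 51.7% of the WT progenitor cells at day 5, the lowest share for WT. Most of the 58 kept clusters also had no marker of their own class among their 10 leading genes, so being kept does not show that a name is right. CF cluster 11, with ACTA2, COL1A1 and COL1A2 among its leading genes, was kept as centroacinar. WT had under 50 centroacinar cells at day 2, and for that library only the ductal and progenitor classes were ordered.

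Centroacinar progenitors were the class with the most CLDN3, CLDN7 and OCLN and the least CDH3 and CLDN1 in all 8 libraries, among the ductal, centroacinar and progenitor classes. OCLN in progenitors was at 101, 78.2, 73.9 and 85.0 CPM in WT and 153, 147, 165 and 163 CPM in CF, against 34.1, 36.5, 42.0 and 51.4 and 40.6, 73.6, 77.7 and 66.4 CPM in ductal cells. In WT centroacinar cells OCLN was nearly as high, at 66.7, 68.3 and 84.2 CPM at day 5, 7 and 9. In those of CF it was at 18.9, 54.0, 29.5 and 47.7 CPM at day 2, 5, 7 and 9. CLDN7 in progenitors was at 326, 262, 228 and 281 CPM in WT and 308, 192, 202 and 229 CPM in CF. CDH3 in progenitors was at 6.82, 3.41, 5.33 and 3.44 CPM in WT and 6.67, 7.95, 6.37 and 4.79 CPM in CF, its lowest level of the 3 classes in both genotypes.

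The class that held CDH3 differed between genotypes. In WT it was highest in ductal cells in all 4 libraries (38.5, 45.4, 44.7 and 42.6 CPM) and low in centroacinar cells (7.33, 20.5 and 8.12 CPM at day 5, 7 and 9). In CF it was highest in centroacinar cells in all 4 (40.5, 40.8, 69.6 and 45.6 CPM) and lower on each later day in ductal cells (33.5, 25.8, 18.0 and 11.8 CPM). The CF ductal values of day 7 and 9 come from the few cells kept, as given above. In centroacinar cells the CF to WT ratio was 5.56 (4.52 to 6.91) at day 5 and 5.62 (4.95 to 6.39) at day 9, and in ductal cells it was 0.568 (0.509 to 0.633) and 0.276 (0.151 to 0.465). Since the names were given within each genotype, a difference in what the names cover cannot be told apart from a difference within a class.

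CLDN4 in centroacinar cells was at 546, 441 and 519 CPM in WT at day 5, 7 and 9 and at 268, 154 and 196 CPM in CF, a ratio of 0.377 (0.367 to 0.387) at day 9. In progenitors the ratio was 0.873 (0.842 to 0.905), 0.988 (0.946 to 1.03) and 1.00 (0.953 to 1.06) on the same days, and in ductal cells it was 1.26 (1.23 to 1.29), 1.22 (1.15 to 1.30) and 1.00 (0.907 to 1.1). CLDN4 was thus under the WT level by more than 1.5-fold in the centroacinar class alone of these 3. Here too the names may cover unlike cells. The WT clusters with the least CLDN4, clusters 23 and 2 at 172 and 200 CPM, were named ductal. Those of CF with the least, clusters 3 and 16 at 121 and 134 CPM, were named centroacinar. CLDN7 in centroacinar cells had a ratio of 0.449 (0.431 to 0.467) at day 9, against 0.816 (0.759 to 0.877) in progenitors and 1.23 (1.06 to 1.41) in ductal cells. Over all ductal cells CF was below WT at day 9, so leaving out clusters turned the ductal direction of CLDN7. OCLN and CDH1 lay below WT in the centroacinar cells of CF, with log2 differences of -0.30, -1.19 and -0.81 for OCLN and -0.36, -0.28 and -0.44 for CDH1 at day 5, 7 and 9. In both other classes they lay above WT at all 4 days, with log2 differences of 0.72, 0.82, 1.06 and 0.57 for CDH1 in ductal cells and 0.47, 0.31, 0.77 and 0.57 in progenitors, and of 0.24, 0.99, 0.87 and 0.36 and 0.60, 0.90, 1.15 and 0.93 for OCLN.

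**Figure D3:**
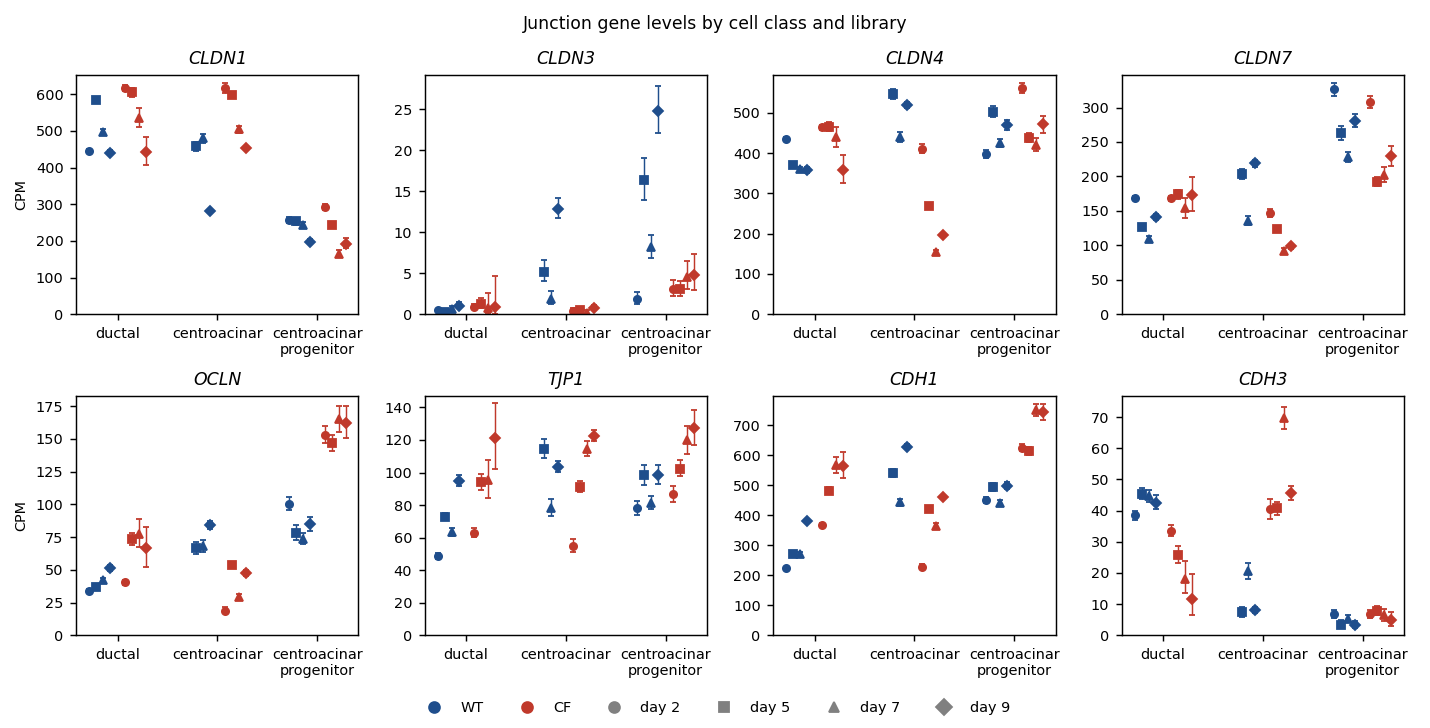
Levels of 8 junction genes (CPM, y axis from 0) in ductal, centroacinar and centroacinar progenitor cells, from clusters kept under their class name, with WT in blue, CF in red and a marker shape for each day. Each point is the summed UMIs of 1 class in 1 library with its 95% exact Poisson interval. CDH3 in centroacinar cells is at 45.6 CPM in CF and 8.12 CPM in WT at day 9, and CLDN4 there is at 196 and 519 CPM.

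Over clusters of at least 100 cells (36 of 41 in WT, 29 of 30 in CF), CDH3 spread widely and TJP1 and EPCAM least of the 9 genes other than CLDN10. These are descriptions, since the clusters were made from the same cells and genes. The highest CDH3 cluster was 19.7-fold above the lowest in WT and 17.0-fold in CF (CPM + 1), from 2.26 CPM in WT cluster 1 to 63.1 in WT cluster 2, and from 4.82 in CF cluster 18 to 98.1 in CF cluster 27. For TJP1 the same folds were 2.92 and 3.96, and for EPCAM 3.08 and 3.59. CF cluster 27 was shallow, with a median of 4718 UMIs, and the next highest was CF cluster 11, at 84.7 CPM.

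The leading genes of WT cluster 2 included INHBA, FN1 (fibronectin) and TAGLN (an actin-binding protein of smooth muscle), and those of CF cluster 11 ACTA2, COL1A1, COL1A2 and LGALS1. In WT cluster 2, CDH3 was high while OCLN was at 11.1 CPM, the lowest of the WT clusters, and CLDN7 at 51.9 CPM and CLDN4 at 199.9 CPM were each the second lowest. CF cluster 11 had OCLN at 24.1, CLDN7 at 57.1 and CLDN4 at 134 CPM. CDH1 was still present in both, at 262 and 349 CPM, and so were EPCAM (98.1 and 190.3 CPM) and TJP1 (90.4 and 154 CPM). The next highest levels of CDH3 were 71.4, 67.6 and 61.5 CPM in CF clusters 3, 16 and 14, and 59.4 and 58.0 CPM in WT clusters 8 and 14.

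CDH1 was highest in WT cluster 16 (1014 CPM), whose 10 leading genes were 8 with LOC identifiers, PIGR, the antibody transporter, and TRPV6, a calcium channel, and in CF cluster 19 (879 CPM, led by SPINK1, TFF3 and TFF2). OCLN was highest in WT cluster 17 (156 CPM, led by TFF2, TFF1 and BPIFB1) and CF cluster 17 (200.5 CPM, led by MUC5AC, LTF and OLFM4). The median share of mitochondrial reads per cell was 14.3% in WT cluster 16, 13.5% in CF cluster 19, 14.2% in WT cluster 17 and 7.40% in CF cluster 17, against 5.38% in WT cluster 2 and 4.50% in CF cluster 11, and its part in these levels was not tested. CLDN3 was highest in WT clusters 21 and 1, at 36.8 and 34.1 CPM, and CLDN3 is itself among the leading genes of WT cluster 1. In CF no cluster passed 10 CPM of CLDN3. Its highest was the shallow CF cluster 21, at 8.70 CPM from 3 UMIs.

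When clusters were divided at 10 CPM of CDH3, a limit chosen after the values were seen, 11 of 36 WT clusters and 5 of 29 CF clusters lay below it. The 11 included all 7 progenitor clusters of WT, and of its 19 ductal clusters 1, and the 5 included 3 of 5 progenitor, 1 of 9 ductal and 1 of 14 centroacinar clusters of CF. CDH1 was at 396 to 1014 CPM (median 549) in the WT clusters below the limit and at 131 to 609 CPM (median 252) in the others. In CF it was at 624 to 879 CPM (median 698) and 211 to 733 CPM (median 336). The clusters low in CDH3 thus had the higher median of CDH1 in both genotypes, and the ranges overlapped.

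**Figure D4:**
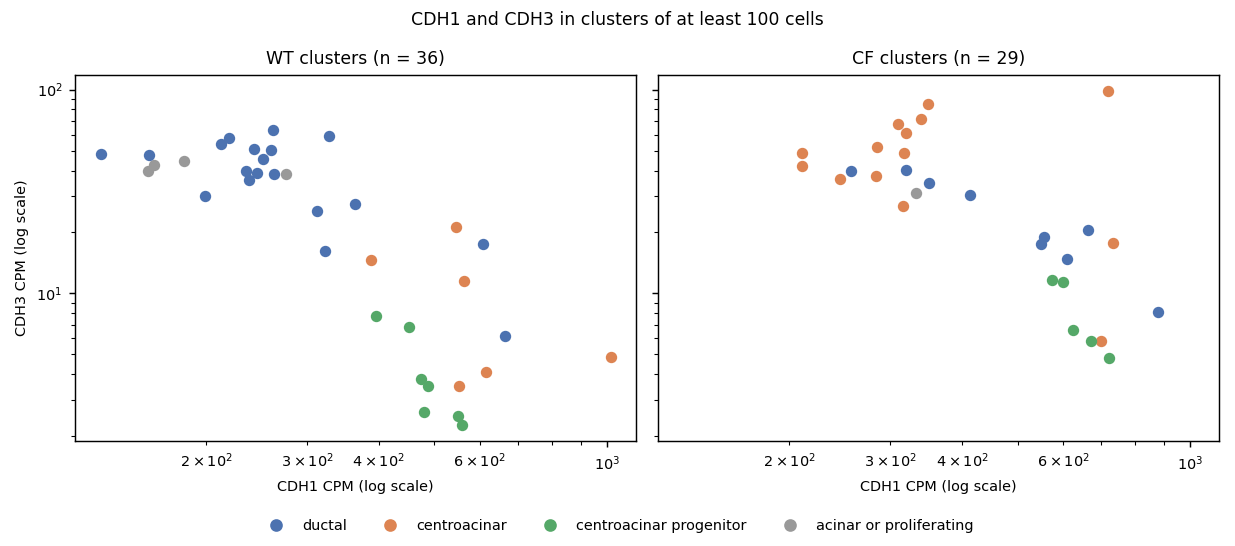
CDH3 against CDH1 (CPM, both axes log scale) in clusters of at least 100 cells, with 36 WT clusters at left and 29 CF clusters at right. Each point is 1 cluster, coloured by its deposited class. Clusters run from low CDH1 with high CDH3 to high CDH1 with low CDH3, and the CF point at upper right is the shallow CF cluster 27 (718 and 98.1 CPM).

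Over these clusters CDH3 ran against CDH1, with Pearson's r of -0.81 in WT (n = 36) and -0.70 in CF (n = 29) on log2(CPM + 1), and of -0.81 and -0.85 over the 32 and 21 clusters kept under their class name. Correlations over clusters are descriptions. The points share libraries and depth and come from a clustering on these genes. CDH3 ran with CLDN1 (r of 0.71 in WT and 0.80 in CF), and CDH1 with OCLN (0.87 and 0.91), so that CDH3 and CLDN1 stood on one side in both genotypes and CDH1 and OCLN on the other. CLDN4 ran with CLDN7 in both (0.65 and 0.80).

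TJP1 and EPCAM were placed differently in the genotypes, although the difference was not tested. TJP1 had an r of 0.43 with CLDN4 and -0.63 with CDH3 in WT, and of -0.48 and -0.01 in CF. EPCAM had an r of 0.64 with CLDN4 in WT and -0.29 in CF, and of 0.54 and 0.01 with CLDN7. TJP1 and EPCAM ran together in both, at 0.57 in WT and 0.65 in CF.

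**Figure D5:**
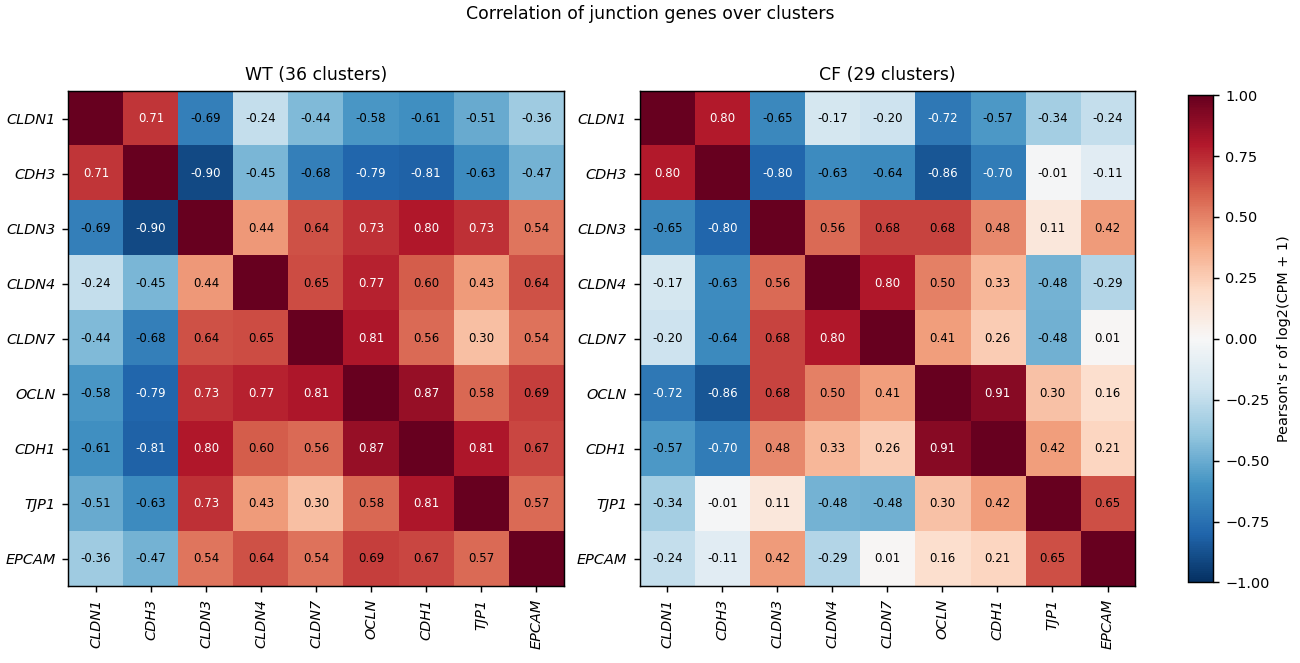
Pearson's r of log2(CPM + 1) between 9 junction genes over 36 WT clusters (left) and 29 CF clusters (right), with red for positive and blue for negative values and r printed in each square. CLDN10 is left out for its low counts. CLDN1 and CDH3 form a red pair in both genotypes, and their squares with the other genes are blue, with TJP1 and CDH3 in CF near 0 at -0.01, and in CF the squares of TJP1 with CLDN4 and CLDN7 are blue, both at -0.48.

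The genes with the pattern most like CDH3 over clusters, of 10435 genes compared in WT and 10517 in CF, included DST (r = 0.98) and KRT5 (r = 0.97) in WT and BACH1 (r = 0.97) and LFNG (r = 0.96) in CF. DST (dystonin, a linker of hemidesmosomes) and KRT5 are genes of basal cells. Those most like CDH1 were ACER2 (r = 0.97), SOAT1 (r = 0.96) and EFCAB14 (r = 0.96) in WT and B4GALT5 (r = 0.94), TMEM41A (r = 0.93) and IST1 (r = 0.92) in CF. OCLN was nearest to RBM47 (r = 0.98), ABLIM1 (r = 0.97) and MAPK3 (r = 0.96) in WT and to SOAT1 (r = 0.97), EFCAB14 (r = 0.96) and RAB11FIP1 (r = 0.96) in CF. SOAT1, which makes cholesterol esters, and EFCAB14 stood near CDH1 in WT and near OCLN in CF.

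CLDN1 was nearest to IFFO2 (r = 0.86), AUTS2 (r = 0.85) and SERPINB5 (r = 0.82) in WT and FERMT1 (r = 0.89), IFFO2 (r = 0.87) and VSNL1 (r = 0.86) in CF, with IFFO2 in both. CLDN4 was nearest to STK24 (r = 0.87), RAP2B (r = 0.86) and NECTIN2 (r = 0.85) in WT, NECTIN2 being an adherens junction gene itself, and to DUSP5 (r = 0.95), DEPP1 (r = 0.94) and LOC101678227 (r = 0.90) in CF. Those nearest to TJP1 included TUFT1 and ATP6V0A1 in WT, and in CF they were LATS2, GALNT3 and ADAM9. The 3 for CLDN7 were LOC101675446, TSPAN8 and RAB3D in WT and BLVRB, KRTCAP3 and DEPP1 in CF, those for EPCAM LOC123389263, GRAMD1C and LOC101689874 in WT and HNRNPH2, JAGN1 and RAP1A in CF, and those for CLDN3 in WT S100A5, LOC101677064 and PIK3AP1. CLDN3 in CF was too low for such a list.

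In single cells the same courses appeared as shares of cells with at least 1 UMI after each cell was thinned to 3000 UMIs. CDH1 was seen in 46.1, 61.6, 61.7 and 72.2% of WT cells at day 2, 5, 7 and 9 and in 65.7, 70.5, 70.2 and 71.4% of CF cells. CLDN4 was seen in 64.2, 61.4, 60.4 and 66.0% of WT and 68.4, 58.6, 45.9 and 42.6% of CF cells, and CDH3 in 9.20, 9.20, 7.37 and 5.38% and 7.94, 10.2, 12.8 and 11.5%. Without thinning the shares were 89.2, 94.3, 95.1 and 95.7% and 96.2, 98.4, 82.5 and 90.9% for CDH1, 97.3, 91.7, 93.7 and 93.5% and 97.7, 95.3, 71.9 and 80.2% for CLDN4, and 42.0, 35.8, 31.9 and 20.9% and 40.3, 46.7, 44.3 and 40.5% for CDH3. Thinning left out 411 of 1607 cells of CF day 7, and 39 to 224 cells of each other library. No class of these cultures is known to lack these genes, so the background share that free RNA would leave could not be read. A thinned cell held UMIs of a median of 3 of the 10 genes in each library, and between 0.887% and 2.68% of cells held none.

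Most other tight junction genes that passed 1.5-fold over time rose, as OCLN did in WT and TJP1 in both genotypes. Of 34 further genes listed, 32 were in the matrices, and 17 of these were at 10 CPM or more from day 2 to day 9 in WT. Of them 9 rose and none fell, against the 21.2% and 14.2% of all genes given above. In CF, 5 of 17 rose and 1 fell, TJP3, a scaffold paralog of TJP1, against 17.8% and 8.06% of all genes. CGN (cingulin, a cytoplasmic linker) rose in both, from 12.2 to 59.6 CPM in WT and from 20.3 to 50.4 CPM in CF. CLDN18, known as the claudin of stomach and lung, was at 5.17, 10.7, 12.3 and 17.5 CPM in WT and 2.49, 4.39, 6.42 and 9.40 CPM in CF, higher on each later day in both and lower in CF on all 4. MARVELD2 (tricellulin, which seals the corners where 3 cells meet) was higher in CF on all 4 days and also higher on each later day in both, at 1.60, 3.96, 4.01 and 6.26 CPM in WT and 7.95, 13.6, 14.2 and 14.6 CPM in CF. Between genotypes, the count past 1.5-fold was 4 higher and none lower of 15 at day 2 (10.5% and 9.74% of all genes), 1 and 1 of 18 at day 5 (5.78% and 8.64%), 3 and 1 of 18 at day 7 (14.4% and 5.85%) and 2 and 3 of 18 at day 9 (9.69% and 7.91%). MARVELD2 and CLDN18 entered the last 3 of these only through the library where they were higher, so neither could have been called the other way. The same held for 1 of the 4 at day 2, and over time at least for CLDN18 in WT and MARVELD2 in CF.

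Of 16 further adherens junction genes, 7 of 11 at 10 CPM or more rose from day 2 to day 9 in WT and 1 fell, and 7 of 12 rose and 2 fell in CF (all genes 21.2% and 14.2% in WT and 17.8% and 8.06% in CF). Of those fallen in CF, 1 was at that level only at day 2, so it could not have been counted as risen. CDH6 (K-cadherin) went from 61.6 to 284 CPM in WT and from 34.5 to 229 CPM in CF, and NECTIN4, an adhesion protein that binds afadin, from 17.7 to 59.3 and from 17.3 to 40.4 CPM. Between genotypes 2 were higher in CF and 2 lower of 12 at day 2 (all genes 10.5% and 9.74%), 1 and 2 of 11 at day 5 (5.78% and 8.64%), 1 and 1 of 11 at day 7 (14.4% and 5.85%), and 1 and none of 11 at day 9 (9.69% and 7.91%).

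Of the desmosomal cadherins, which tie neighbouring cells together at sites of keratin attachment, DSC2, DSG3 and DSC3 were apart between genotypes on every day. DSC2 was at 16.5, 22.6, 24.3 and 30.8 CPM in WT and at 0.107, 0.112, 0.202 and 0.120 CPM in CF, and DSG3 at 49.0, 17.7, 26.6 and 23.0 and 4.29, 3.99, 8.69 and 6.0 CPM, while DSC3 was at 24.7, 19.8, 21.1 and 18.1 CPM in WT and 75.0, 82.6, 91.4 and 55.5 CPM in CF. DSC2 and DSG3 were lower in CF and DSC3 higher on all 4 days. Of the 7 listed desmosome genes in the matrices no other passed 1.5-fold, except DSG2 at day 2. The desmosome counts were thus 2 higher and 2 lower of 7 at day 2 (10.5% and 9.74% of all genes) and 1 and 2 of 7 at day 5 (5.78% and 8.64%), 7 (14.4% and 5.85%) and 9 (9.69% and 7.91%). DSC2 and DSG3 were under 10 CPM in every CF library and entered these counts only through WT, so neither could have been called higher. PKP2, a plaque protein, rose in both genotypes, from 38.2 to 96.8 CPM in WT and 36.7 to 122 CPM in CF.

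Among 5 partners of EPCAM and CLDN7, the protease inhibitor SPINT2 and the protease ST14 (matriptase) rose in both genotypes. SPINT2 went from 32.9 to 72.6 CPM in WT and 53.5 to 148 CPM in CF, and ST14 from 24.9 to 83.4 and 35.6 to 72.5 CPM. In WT, 4 of the 5 rose and none fell, where 21.2% of all genes rose, and in CF 2 rose and none fell, where 17.8% did.

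Transcription factors that act on junction genes were listed as well. Of 15 listed regulators, 10 were at 10 CPM or more in the comparison of day 9 with day 2, of which 3 rose in WT (GRHL1, GRHL3, ELF3) and none fell, while in CF SNAI2 rose and OVOL1 fell. Of all genes, 21.2% rose and 14.2% fell in WT, and 17.8% rose and 8.06% fell in CF. Between genotypes 4 regulators were higher in CF and 1 lower of 11 at day 2 (10.5% and 9.74% of all genes), 2 and none of 11 at day 5 (5.78% and 8.64%), none of 10 at day 7 (14.4% and 5.85%) and 1 and 2 of 10 at day 9 (9.69% and 7.91%). GRHL1 was at 10.1, 10.1, 11 and 16.2 CPM in WT and 6.04, 8.53, 7.46 and 7.06 CPM in CF, and OVOL1 at 7.89, 6.69, 8.15 and 7.42 and 14.0, 11, 5.76 and 4.48 CPM. GRHL1 at day 2 and 9 and OVOL1 at day 2 and 5 entered the counts only through the library where they were higher. Neither could then have been called the other way, nor could OVOL1 have been counted as risen in CF. ELF3, an epithelial ETS factor, was at 244, 373, 385 and 508 CPM in WT and 399, 411, 333 and 310.1 CPM in CF, with CF above WT at day 2 and below it at day 9. GRHL3 was at 16.6, 14.8, 20.3 and 29.1 CPM in WT and 31.8, 26.2, 19.0 and 21.4 CPM in CF, and GRHL2, a factor that acts on CDH1 and CLDN4, at 20.7, 22.6, 22.9 and 24.4 and 23.1, 25.1, 27.8 and 23.4 CPM, within 1.5-fold on every day.

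Of the repressors of CDH1, ZEB1, ZEB2 and SNAI1 had at most 1.2 CPM in any library. SNAI2, also a gene of basal cells, was at 43.2, 59.3, 54.0 and 37.3 CPM in WT and 29.9, 42.1, 66.1 and 59.7 CPM in CF, past 1.5-fold between genotypes at day 9 alone. TWIST1 was at 18.4, 27.8, 23.5 and 23.1 CPM in WT and 29.1, 33.6, 31.6 and 34.8 CPM in CF, past 1.5-fold at day 2 alone. KLF5, ESRP1, ESRP2 and OVOL2 stayed within 1.5-fold between genotypes at all 4 days. The part of these factors in the junction gene values was not tested.

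Within WT, 12 of 41 clusters had SOX2, an epithelial stem cell factor, under 10 CPM, with 14.3%, 33.8%, 27.5% and 27.9% of cells at day 2, 5, 7 and 9, and in CF all 30 clusters were under it, at 1.08 CPM at most. The limit was known from earlier results of these data. CDH3 was at 32.7, 38.2, 37.2 and 38.4 CPM in SOX2-low and 35.0, 25.1, 24.2 and 13.7 CPM in the other WT cells, so that the lower CDH3 of later days was in the latter. CLDN3 from day 5 on also differed, at 1.43, 0.388, 0.804 and 1.59 CPM in SOX2-low and 0.511, 10.6, 7.45 and 14.3 CPM in the other cells. CLDN4 and CLDN7 at day 9 were lower in CF than in either kind of WT cell, with log2 differences of -0.96 and -0.90 for CLDN4 and -0.68 and -0.88 for CLDN7.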

How the data were processed

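RNA of single cells was counted in 8 libraries, 1 for each genotype and day. The deposited files hold raw UMI counts per gene and barcode, which the authors made with Cell Ranger 5.0.1 on assembly ASM1176430v1.1 per the submitters' processing notes, and a deposited cell table with the percent of mitochondrial reads, cluster and class that the authors assigned in Seurat (R 4.1.2). Only cells in that table were used. The authors had removed doublets with DoubletFinder and cells of over 20% mitochondrial reads, and no caller was run again. UMIs were summed by library, class and cluster and divided by the total to give CPM (Python 3.11.15, pandas 2.3.3, scipy 1.17.1). Differences are log2 ratios of CPM + 1. A gene was called at 1.5-fold if it had at least 10 CPM in 1 of the 2 libraries. Intervals are exact at 95%: Poisson for levels, Clopper-Pearson for shares and conditional binomial for ratios. They cover counting error only, since each group is 1 library of pooled animals and no difference at a given day could be tested. TMM factors came from edgeR 4.0.16. Cells were thinned to 3000 UMIs with a fixed seed. The calls, intervals and likeness ranks were tested on simulated counts. Named outside the 10 genes were the 3 genes nearest to each over clusters, listed junction genes that CF and WT held 1.5-fold or more apart one way on each of the 4 days, or that moved 2-fold or more one way in both genotypes, and the listed regulators; some of these genes are not reported here. TJP3 was named beside a count of 1, and DSG2 and the leading genes of clusters after their values were seen. Members and lists were chosen with earlier results of these data known. Alternative scalings, cells, classes, filters and limits were tried.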

Additional observations from a re-analysis of the deposited data

Results flagged for a closer look

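From day 2 to day 9, CLDN4, CLDN7 and CDH3 changed in opposite directions in the genotypes over whole libraries by CPM, with the counting interval of each change clear of no change. The share of all genes that did so was not taken, so their number is no result about junction genes. WT minus CF on the log2 scale was 1.07 for CLDN4, 0.78 for CLDN7 and -1.2 for CDH3. CLDN4 changed by 0.14 in WT and -0.94 in CF, CLDN7 by 0.03 and -0.75, and CDH3 by -0.68 and 0.51. OCLN changed by 0.78 in WT and -0.02 in CF, where its interval spanned no change (ratio 0.985, 0.944 to 1.03). The WT changes of CLDN4 and CLDN7 were small and below 0 with equal class weight, at -0.09 and -0.14, and the CF change of CDH3 was then -0.30. That of CLDN7 was smaller than the median shift of all genes under TMM (-0.06) or median-of-ratios scaling (-0.09). In ductal cells of kept clusters, CLDN4 went from 436 to 358 CPM in WT and 464 to 359 in CF. CLDN7 there went from 169 to 141 and 168 to 173 CPM, and CDH3 from 38.5 to 42.6 and 33.5 to 11.8 CPM. With 1 library for each genotype and day, the difference was not tested.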

How the results depend on the processing

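Each group was 1 library, so no difference at a given day could be tested, and genotype and pool of animals cannot be told apart. A fit of genotype with day as a term, which would take the days of a pool as replicates, was not run. No paired analysis was possible because the sample titles carry no replicate numbers, and with 1 library per group no replicate could be left out. CLDN3 and CLDN10 were limited by depth. Of the 11 differences between CF and WT of at least 1.5-fold in any of the 10 genes, all 11 kept their direction under 9 alternatives, 8 against SOX2-low WT cells and 5 within ductal cells alone.

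Counts of genes past 1.5-fold moved with the cells that were compared. The share of all genes past the limit is not given for these alternatives, so their counts have no background beside them. In ductal cells alone the median of all genes shifted by -0.24 at day 7 and -0.26 at day 9 on the log2 scale. With equal weight for each class, the counts were 0 (for 2) higher at day 2, 0 (for 1) lower at day 7 and 1 (for 3) lower at day 9, 2 (for 4) risen and 0 (for 1) fallen in WT, and 1 (for 2) fallen in CF, which was CLDN1 (-0.71) and neither of the 2. In WT at day 2 this gave 29 centroacinar cells the weight of a class. In ductal cells alone they were 2 higher and 1 lower (for 0 and 0) at day 5, 2 (for 1) higher at day 9, 0 (for 1) fallen in WT and 4 (for 2) risen in CF, and the 2 fallen in CF were CLDN1 (-1.20) and CDH3 (-1.64) in place of CLDN4 and CLDN7. Against SOX2-low WT cells they were 0 (for 2) higher and 1 (for 0) lower at day 2, 2 (for 0) higher at day 5 and 0 (for 1) higher at day 9, while at day 7 the count stayed at 2 with CDH1 (0.73) in place of CDH3 (0.32). Without the clusters that went against their class name, an alternative chosen after seeing the data, 1 (for 2) was higher at day 2 and 1 (for 0) at day 5.

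Under TMM or median-of-ratios scaling 1 (for 0) was higher at day 5 and 0 (for 2) at day 7. Totals without mitochondrial genes gave 1 (for 0) higher at day 5. A filter of 1 CPM or no filter gave 1 (for 0) lower at day 5 and 2 (for 1) lower at day 7. At 2-fold none was higher at day 2, 7 or 9 (0 for 2, 2 and 1), and 0 (for 1) was lower at day 7 and 1 (for 3) at day 9. At that limit 2 (for 4) had risen and 0 (for 1) fallen in WT, and 0 (for 2) had risen and 0 (for 2) fallen in CF.

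Among the differences between CF and WT of at least 1.5-fold, those that reversed within ductal cells were CLDN3 at day 5, 7 and 9 (0.82, 0.12 and 0.39), CLDN4 at day 7 (0.17) and CDH3 at day 7 and 9 (-1.64 and -2.30), and the change of CDH3 in WT from day 2 to day 9 reversed to 0.15. Against SOX2-low WT cells they were CLDN3 at day 5 and 7 (0.74 and 0.35) and CDH3 at day 9 (-0.0225). Without the clusters that went against the ductal name, CLDN3 at day 9 was at -0.16 with a ratio interval of 0.0195 to 4.72, from which no direction can be read. CLDN7 at day 9, below WT over all ductal cells, was above it without them, at 173 CPM in CF and 141 CPM in WT. CLDN4 was then level, at 359 and 358 CPM. Smaller differences also changed sign, within ductal cells for CLDN4 at day 5 (0.32), CLDN7 at day 5 and 7 (0.44 and 0.26), CLDN1 at day 9 (-0.92) and OCLN at day 9 (1.26), the latter pair being at 0.007 and 0.36 without those clusters, and against SOX2-low WT cells for CLDN3, CLDN4 and EPCAM at day 2 (-0.28, -0.75 and -0.23) and CLDN1 at day 5 and 9 (-0.29 and -0.03). With equal class weight, 20 of 25 smaller differences kept their direction, and CLDN3 at day 2 (-0.38), TJP1 and CDH3 at day 5 (-0.09 and 0.38) and CLDN1 and OCLN at day 9 (-0.05 and 0.56) did not. Without clusters that went against their class name 22 did, CLDN7 at day 2 (0.02), CLDN1 at day 5 (-0.02) and CDH1 at day 9 (-0.04) being the exceptions. Of the other alternatives, 5 turned 1 of the 25 and 2 turned none. The cause was not tested. All deposited barcodes, cells of at least 3000 UMIs, a pseudocount of 5 CPM and the removal of shallow clusters each left all 12 counts as they were or within 1.5 times. By Spearman's rank correlation, 8 of the lists of nearest genes kept at least 2 of their 3 genes and 9 did not.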
